A study of Musca domestica with 29 samples.

Results

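In heads of male house flies (Musca domestica), 22 genes were transcribed in every fly sampled from at least 1 strain and near or at 0 in every fly from another. A gene was called on in a genotype where each of its 3 head libraries had a normalized read count of at least 50, and silent where each was below 5. Genes with a LOC identifier were taken where at least 1 male genotype was on and at least 1 was silent. Genes on Muller element A (chromosome III) or F (the X chromosome) were left out. A last step removed genes with every female head above every male head, and it removed 0 genes. The 22 genes were 0.273% of the 8068 such genes with an on genotype, out of 16540 genes in the head table. The genes were chosen by these male head values, so the values are described without a test, and the tests use abdomens, which the choice did not.

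Poly(A) RNA was sequenced from head and abdomen of individually dissected flies, with 3 libraries for each male genotype and tissue. YM males, with the male-determining locus on the Y chromosome, came from strain IsoCS. YM(III) males, from strain bwbCS, carried the same kind of Y and, per the labels, differed from the others also in 1 copy of chromosome III. IIIM #1 males came from strain CS and IIIM #2 males from strain CSrab, both with the locus on chromosome III. The labels describe the males as sharing their genome apart from these chromosomes, and the females as isogenic with each other. Female heads were sequenced from IsoCS, CSrab and CS, and female abdomens from IsoCS and CSrab, with 1 library per strain and tissue and none of bwbCS used here. Each male genotype was 1 strain, so an effect of the male-determining chromosome and any other difference between strains cannot be told apart.

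In the house fly the male-determining locus is found on different chromosomes in different populations, and males with the locus on the Y and on chromosome III both occur in nature. A chromosome that recently took up this role is called a proto-Y chromosome, and it still resembles the chromosome it came from.

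Depth set what a value below 5 means. Male heads held 5.8 to 39.24 megareads (M reads) and female heads 28.99 to 29.84, and 1 read was worth 0.48 to 3.882 units in the male heads. Male abdomens held 0.79 to 43.47 M reads, and 2 of them, YM replicate 2 and IIIM #2 replicate 2, held under 1 M, where 1 read was worth 7.66 and 8.80 units. A value below 5 in those abdomens therefore means 0 reads. The labelled tissues were checked against the neuropeptide gene pdf, at 21.5 to 71.1 CPM (counts per megaread of the library) in male heads and 0 to 1.27 in male abdomens. Mda2 (7.94 to 153 against 0 to 1.26) and MdRdl (0.502 to 10.2 against 0 to 0.117) separated the tissues too. Other nervous system and sense organ genes overlapped between male heads and male abdomens. These were IR25a (17.0 to 32.8 against 0.991 to 71.0), para-like (112 to 266 against 57.0 to 396), nAChRbeta3 (21.0 to 44.5 against 3.08 to 25.4) and Gr2 (0.172 to 18.7 against 0 to 1.19). In male abdomens the replicate 3 libraries of the 4 genotypes deviated together from their genotype means, with correlations across genes of 0.324 to 0.654. Correlations were 0.159 to 0.519 for replicate 2 and 0.069 to 0.322 for replicate 1. Replicate 3 was also the deepest male abdomen library of each genotype, at 17.61 to 43.47 M reads against 0.79 to 8.58 in the others. Replicate number and depth therefore cannot be told apart. Bulk tissue cannot tell fewer cells of an expressing type from less RNA per cell. Head and abdomen tables were normalized separately, so levels are compared between genotypes within a tissue.

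The silent genotype differed from gene to gene. IIIM #2 heads were silent for 12 of the 22 genes and on for 5, while YM heads were silent for 7 and on for 11. YM(III) heads were silent for 5 and on for 10, and IIIM #1 heads were silent for 6 and on for 6. In the remaining cases at least 1 library lay between the thresholds or on the wrong side of one, which was so for at least 1 genotype of 16 genes. There were 17 different patterns of on, intermediate and silent over the 4 genotypes. No gene was on in both YM types and silent in both IIIM strains, and none had the reverse pattern. Pairing each on genotype with each silent genotype of the same gene gave 40 pairs, 16 of them between strains with the same proto-Y type and 24 across types. The 4 genotypes allow more pairs across types than within a type, so the counts of 16 and 24 have unlike bases. Of the 22 genes, 16 had a pair within a type and 6 had pairs only across types.

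**Figure D1:**
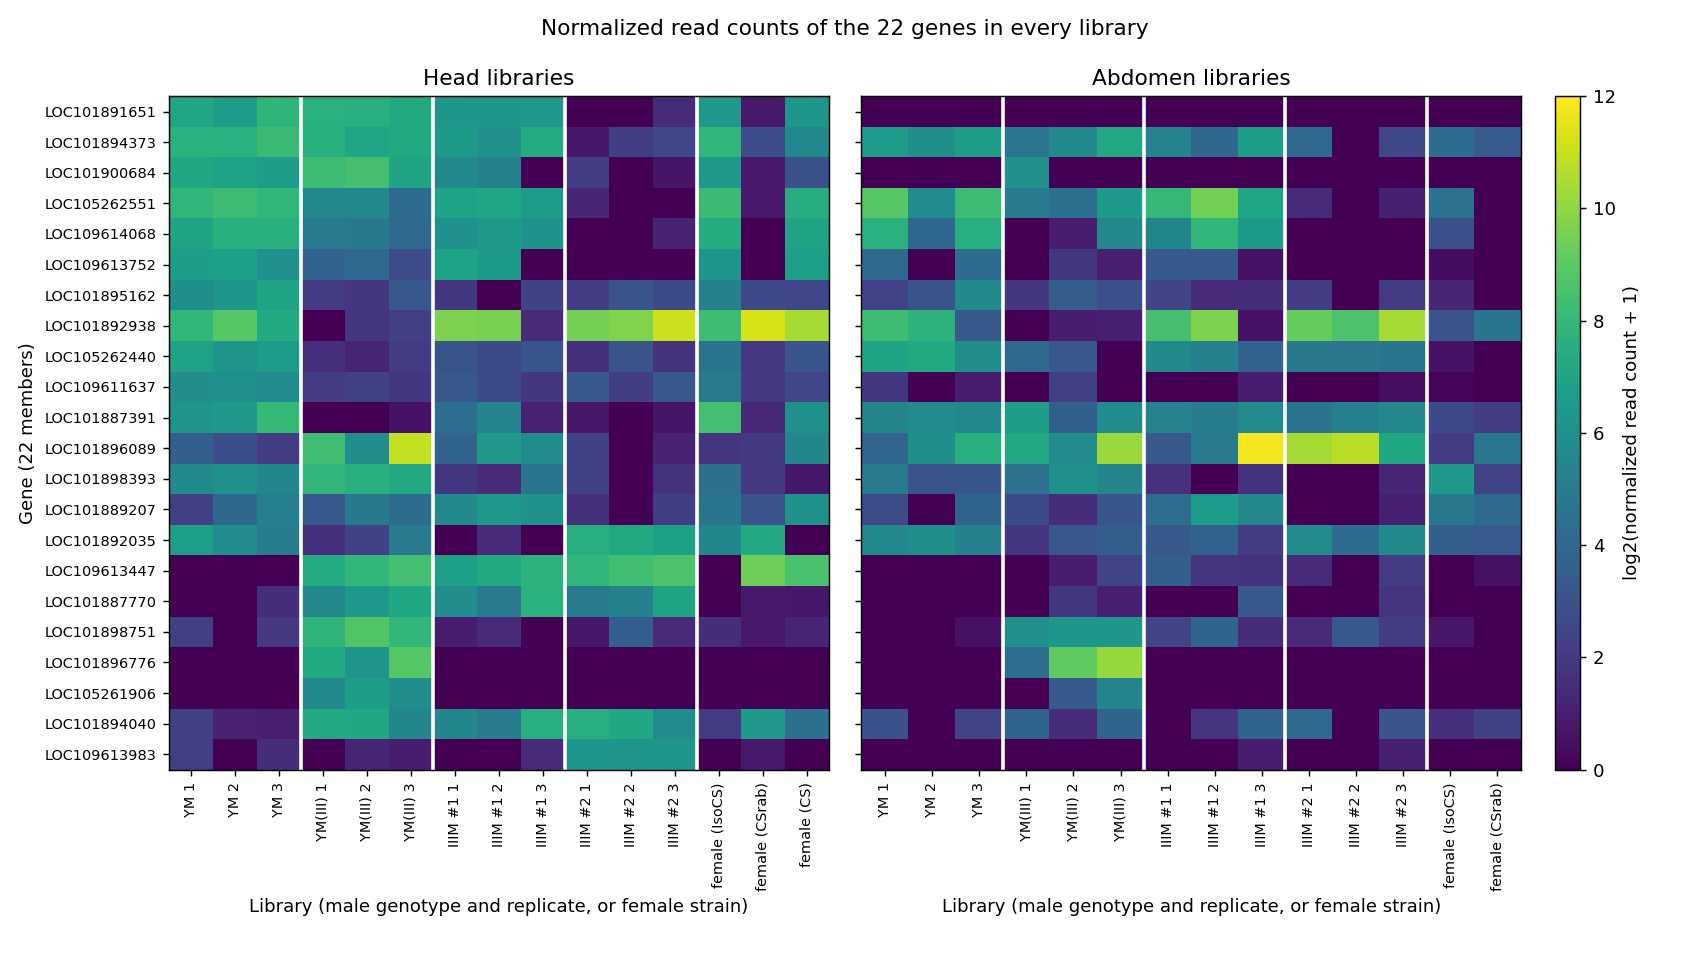
Normalized read counts of the 22 genes, as log2(value + 1) by colour, in the head libraries (left) and abdomen libraries (right), with white lines between male genotypes and before the females. Dark blocks of 3 male head libraries are the silent genotypes, the IIIM #2 column block being dark for 12 genes, and the abdomen side is darker, with LOC101891651 at 0 in every library.

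By the annotation, the genes were scattered. Of the 22 genes, 5 lay on Muller element B, 5 on E, 2 on C and 1 on D, and 9 had no assigned element. The unassigned share was 40.9% of the 22, against 15.9% of the 8068 LOC genes on in at least 1 genotype. The RefSeq table of the polished-contig house fly assembly listed 15 as protein coding and 2, LOC109611637 and LOC109613983, as long noncoding RNAs, and it had no entry for 5. Protein-coding genes were 68.2% of the 22 and 89.3% of the 8068. No product names are given for these identifiers in the tables used here, so no role is stated for any of the 22.

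Heads of IIIM #2 lacked transcripts that the other strains had. LOC101891651, a protein-coding gene on element C, had 132, 97.0 and 231 normalized reads in YM heads, 203, 183 and 155 in YM(III) and 80.9, 81.5 and 84.5 in IIIM #1, against 0, 0 and 1.82 in IIIM #2 heads. LOC101894373, on element B, had 202, 200.3 and 288 in YM, 195, 132 and 156 in YM(III) and 90.6, 67.0 and 168 in IIIM #1, against 0.706, 3.64 and 4.85 in IIIM #2. These were the only 2 genes on in 3 genotypes and silent in IIIM #2, and in both every other male head lay far above every IIIM #2 head. A pair of genes was on in YM and IIIM #1, intermediate in YM(III) and silent in IIIM #2. LOC105262551, a protein-coding gene on element B, had 241, 302 and 243 in YM heads and 123, 132 and 98.4 in IIIM #1 heads, against 1.41, 0 and 0 in IIIM #2 heads, with 45.9, 47.2 and 17.3 in YM(III). LOC109614068, on element E and without an entry in the reference, had 128, 195 and 196 in YM and 65.5, 85.1 and 71.6 in IIIM #1, against 0, 0 and 1.21 in IIIM #2, with 28.8, 28.3 and 16.3 in YM(III). In each of these genes the 3 levels, high in YM and IIIM #1, lower in YM(III) and lowest in IIIM #2, did not overlap.

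Of the other genes silent in IIIM #2 heads, 3 were on in YM. LOC109613752, on element E, had 101, 109.6 and 67.1 in YM heads and 0 in all 3 IIIM #2 heads, with 12.8, 16.2 and 5.76 in YM(III). LOC101900684 had 147, 123 and 102 in YM and 299.8, 353 and 126 in YM(III), against 3.53, 0 and 0.606 in IIIM #2. LOC101887391, on element E, had 73.7, 88.2 and 258 in YM, against 0, 0 and 0.48 in YM(III) and 0.706, 0 and 0.606 in IIIM #2. The first 2 of these were uneven within IIIM #1, where LOC109613752 had 124, 90.5 and 0 and LOC101900684 had 51.1, 38.0 and 0 in replicates 1 to 3. LOC101889207 was on only in IIIM #1, with 52.0, 83.3 and 71.1, against 2.12, 0 and 3.64 in IIIM #2. LOC101898393 had 234, 193 and 152 in YM(III) heads, against 4.23, 0 and 2.43 in IIIM #2 heads. LOC101896089 had 315, 58.0 and 1896 in YM(III) heads, against 4.23, 0 and 1.21 in IIIM #2 heads, so its on level itself varied widely between flies.

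YM(III) heads were alone in having 2 transcripts. LOC101896776, a protein-coding gene on element E, had 161, 75.5 and 459 normalized reads in YM(III) heads and 0 reads in each of the 9 heads of the other males, at least 239-fold higher than in YM (floor of 3 reads over the 3 YM libraries). LOC105261906, with no assigned element and no reference entry, had 51.2, 101 and 57.1 in YM(III) heads and 0 reads in each of the same 9 heads, at least 72.0-fold higher than in YM by the same floor. LOC101898751 came close to this pattern, with 228, 430.2 and 243 in YM(III) against 3.88, 0 and 2.94 in YM and 0.963, 1.81 and 0 in IIIM #1. It missed the silent class in IIIM #2 through 1 library, at 0.706, 10.9 and 1.82. In these 3 genes every YM(III) head lay above every head of the other 3 genotypes.

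YM heads had the opposite case. LOC109613447, a protein-coding gene on element D, had 0 reads in all 3 YM heads and was on in every other genotype, with 168, 243 and 342 in YM(III), 109.8, 163 and 212 in IIIM #1 and 239, 327 and 395 in IIIM #2. Over the YM group the 3-read floor was 0.97 units, so the YM(III) level was at least 259-fold, the IIIM #1 level at least 167-fold and the IIIM #2 level at least 330.3-fold higher than in YM. LOC101887770 had 50.2, 82.3 and 142 in YM(III), against 0, 0 and 1.96 in YM. LOC101894040, on element C, had 186, 142 and 56.4 in IIIM #2, against 3.88, 1.26 and 0.98 in YM. For both genes the genotypes that were not silent overlapped each other.

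The long noncoding RNA LOC109613983 was on only in IIIM #2 heads, with 77.6, 80.0 and 77.6, against 3.88, 0 and 1.96 in YM, 0, 1.35 and 0.959 in YM(III) and 0, 0 and 1.75 in IIIM #1. LOC101892035, on element E, was also on in IIIM #2, with 187, 156 and 115, against 0, 1.81 and 0 in IIIM #1. These 2 genes separated the IIIM strains from each other in the direction opposite to the genes silent in IIIM #2.

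YM(III) heads were silent for LOC101892938, which had 245, 471 and 159 in YM and 725, 844 and 2192 in IIIM #2, against 0, 2.7 and 3.84 in YM(III). In IIIM #1 its replicates fell on both sides, at 791, 753 and 1.75. LOC105262440, on element B, had 120.3, 73.1 and 94.1 in YM, against 2.13, 1.35 and 3.36 in YM(III). The long noncoding RNA LOC109611637, on the same element, had 58.2, 64.2 and 54.9 in YM, against 3.2, 4.05 and 2.88 in YM(III). LOC101895162 had 62.1, 81.9 and 129 in YM, against 2.89, 0 and 4.08 in IIIM #1. For the last 3 genes, YM heads were the only ones on, and the highest value in any other male head was 9.17, that of LOC109611637 in IIIM #2.

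**Figure D2:**
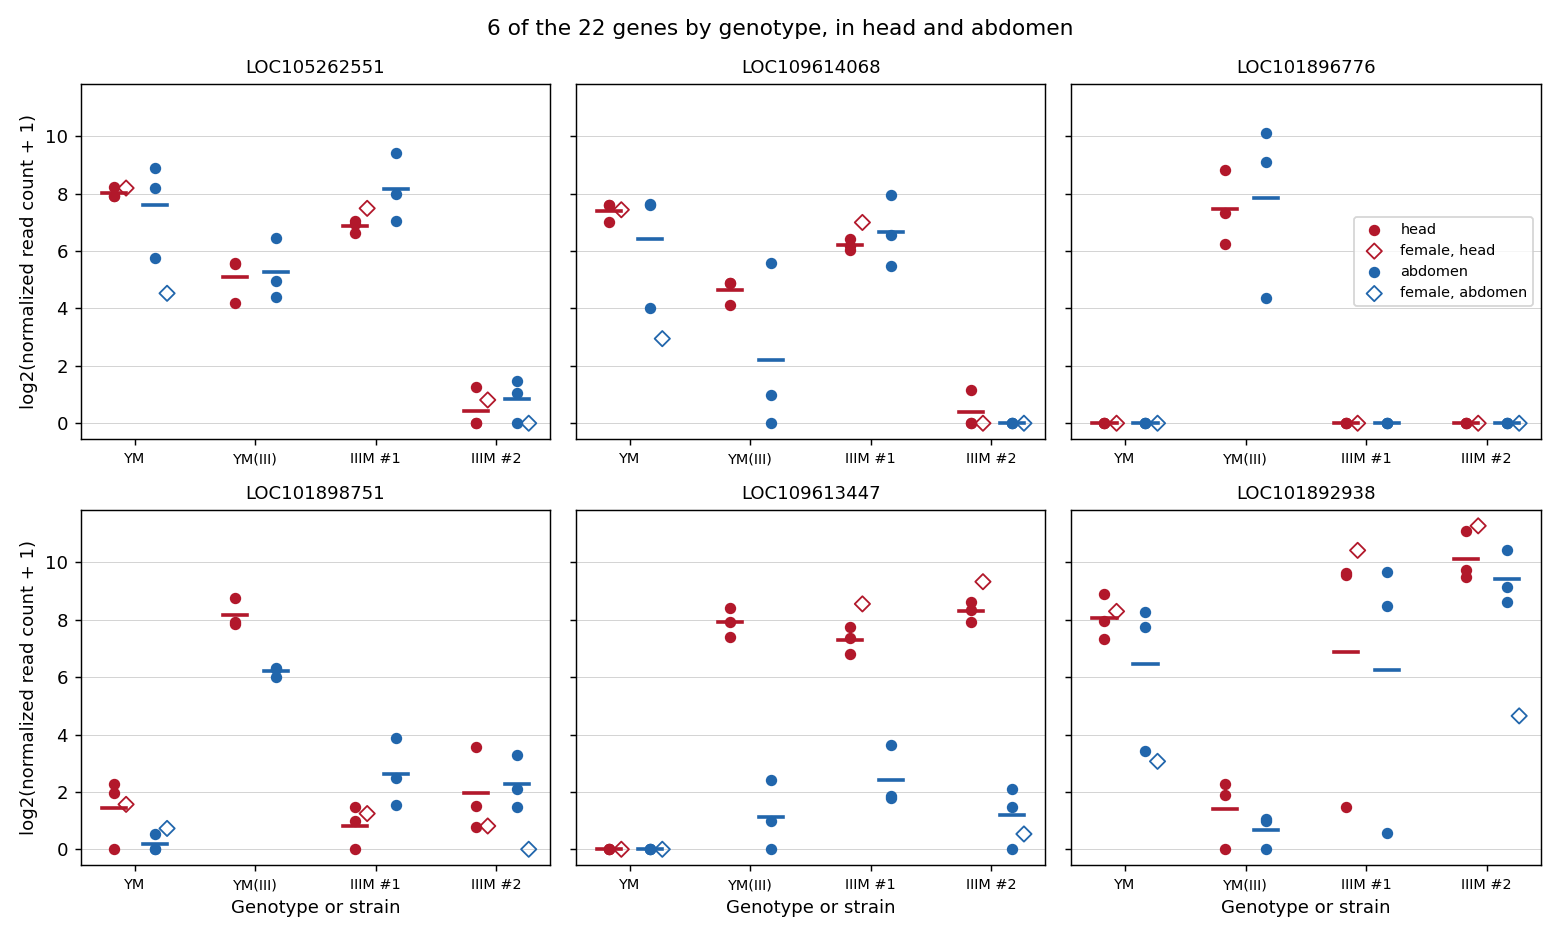
Normalized read counts, as log2(value + 1), of 6 of the 22 genes (picked after their values were seen) in male heads (red) and male abdomens (blue) by genotype, with 1 filled point per library, bars at the mean of 3 libraries, and open diamonds for the female library of the strain. The genotypes silent in head were silent in abdomen too for LOC105262551 and LOC101896776, but for LOC101898751 YM was and IIIM #1 was not, while LOC109613447 was low in all abdomens, and LOC101892938 had 1 IIIM #1 library near 0 in each tissue.

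Some genes sat close to the thresholds. Just inside the minimum of 50, the deciding value was 50.2 for LOC101887770 and 51.2 for LOC105261906, and just outside it was 43.7 for LOC101891693 and 42.6 for LOC101897197. Just inside the limit of 5 were LOC101894373 at 4.85 and LOC101896089 at 4.23, and just outside were LOC101888851 and LOC101898920, both at 5.04.

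The abdomens of the same genotypes were then compared, a tissue that played no part in choosing the genes. Of the 40 pairs of an on and a silent genotype, 8 pairs of 5 genes were called in male abdomen with the genotype on in head higher (limma, Benjamini-Hochberg adjusted p under 0.05), and 0 pairs were called the other way. Over all genes and directions of comparison, 0.899% were called. The pairs called came from LOC101896776, LOC101898393, LOC101898751, LOC105262440 and LOC105262551. At an unadjusted p under 0.05, 18 of the 40 pairs were higher in the on genotype, against 6.19% of all tests in a given direction, and 0 were lower. Without the replicate 3 libraries, the deepest of each genotype, 5 pairs were called, and without both libraries under 1 M reads 3 were. Called pairs fell in 6 of the 11 directions that held a pair. In the other directions hardly any pair could be tested, so the absence of calls there says nothing. Of the 1 pair with YM over IIIM #1 (0.0176% of all genes called) and the 1 with IIIM #1 over YM (0.0529%), 0 were tested. Only 1 pair each was tested with IIIM #2 over YM (0.353%), over YM(III) (0.291%) and over IIIM #1 (0.0176%). Of the 8 calls, 5 came from 3 genes that passed the filter on low values only with the libraries of their on genotype (LOC101896776, LOC101898393 and LOC101898751). The remaining 3 calls, of LOC105262440 and LOC105262551, did not depend on those libraries for the filter. With no filter the same 8 pairs were called. edgeR called 3 pairs (0.707% of all) and DESeq2 called 14 (2.69% of all) on the recovered reads, and each called 0 pairs with the silent genotype higher.

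LOC105262551, near 0 in both tissues of IIIM #2 males, was called in abdomen for both its pairs with IIIM #2. Abdomens had 471, 53.6 and 295 normalized reads in YM and 254, 691 and 132 in IIIM #1, against 1.79, 0 and 1.1 in IIIM #2, with no overlap. The IIIM #2 values came from 4 reads in all, so folds over them are rough. Folds are ratios of mean values, while log2 differences are between means of log2(value + 1), so the 2 measures need not match. YM abdomens were 284-fold higher than IIIM #2 abdomens (log2 6.77, SE 0.89, limma adjusted p = 0.0132), where 0.503% of all genes were called in that direction. IIIM #1 abdomens were 373-fold higher than IIIM #2 abdomens (log2 7.31, SE 0.89, limma adjusted p = 0.0167), where 0.0265% were. The first call was lost without YM replicate 1 (limma adjusted p = 0.0728), IIIM #2 replicate 2 (0.0712) or IIIM #2 replicate 3 (0.0596). The second was lost in 6 of the 12 fits that each left out 1 library, most of all without IIIM #2 replicate 2 (limma adjusted p = 0.236), and the log2 difference stayed at 6.68 to 7.87 in these fits. edgeR ended this call too (adjusted p = 0.183), as did limma on the 2 genotypes only (adjusted p = 0.0984), on replicates 1 and 2 only (0.117), without both libraries under 1 M reads (0.0648) and with pseudocounts of 0.1 (0.0726) and 5 (0.0615), so 12 of its 23 alternatives ended it. YM(III) abdomens were intermediate again, at 30.4, 20.3 and 86.5.

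LOC101896776 kept its YM(III) pattern in abdomen, with 19.4, 545 and 1103 normalized reads in YM(III) and 0 reads in the 9 other male abdomens. By the 3-read floor, YM(III) was at least 1406-fold higher than YM, at least 678-fold higher than IIIM #1 and at least 632-fold higher than IIIM #2. The log2 difference was 7.85 (SE 1.22) for each pair, a value that depends on the pseudocount of 1. The pair with YM was called (limma adjusted p = 0.00556, where 1.68% of all genes were called), as were those with IIIM #1 (adjusted p = 0.0422, 0.0353% of all) and IIIM #2 (adjusted p = 0.0274, 0.106% of all). The call against YM held without each YM, IIIM #1 or IIIM #2 library. The calls against IIIM #1 and IIIM #2 were each lost in 8 of these 9 fits, up to limma adjusted p = 0.226 without IIIM #1 replicate 2 and 0.158 without IIIM #2 replicate 1, and held only without IIIM #1 replicate 3. The gene passed the filter only through its 3 YM(III) libraries, so it could be tested only because it was high there, and without any 1 of them it no longer passed. edgeR and DESeq2 called none of the 3 pairs (smallest adjusted p 0.0593, DESeq2 against YM). The call against YM was also lost with limma on the 2 genotypes only (adjusted p = 0.0534) and with a mean of at least 50 (0.0571). Those against IIIM #1 and IIIM #2 were lost with these settings (limma adjusted p = 0.227 to 0.462), with pseudocounts of 0.1 or 5 (0.0559 to 0.081) and without both libraries under 1 M reads (0.132 and 0.2).

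LOC101898751 had 63.7, 77.2 and 78.3 in YM(III) abdomens, against 0, 0 and 0.444 in YM abdomens and 4.62, 13.7 and 1.94 in IIIM #1 abdomens. Over YM it was 185-fold higher, from 3 reads in YM (95% exact Poisson interval 63.2 to 896, counting error only), with a log2 difference of 6.03 (SE 0.72, limma adjusted p = 0.00179). This call held in each of the 22 alternative fits that tested the gene. In the main fit the gene passed the filter only with its YM(III) libraries, so it could be tested there only because it was high in them. With a mean of at least 50 as the filter, the gene did not pass and was not tested. Over IIIM #1 the log2 difference was 3.56 and was not called (limma adjusted p = 0.0947), although the libraries did not overlap.

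LOC105262440 had 128, 153 and 60.0 in YM abdomens, against 16.6, 8.68 and 0 in YM(III) abdomens, a 13.5-fold difference (log2 4.26, SE 0.95, limma adjusted p = 0.0215). In this direction 7.56% of all genes were called. The call was lost without YM replicate 1 (limma adjusted p = 0.0919) or YM replicate 2 (0.083). It was also lost on the 2 genotypes only (limma adjusted p = 0.0965), with a pseudocount of 0.1 (0.0611) and without both libraries under 1 M reads (0.11). Abdomens of IIIM #2, at 26.8, 26.4 and 24.1, lay between. Those of IIIM #1, at 53.1, 36.1 and 12.6, lay below YM and overlapped YM(III). LOC101898393 had 22.1, 63.7 and 43.3 in YM(III) abdomens, against 0, 0 and 1.46 in IIIM #2 abdomens (log2 4.91, SE 0.79, limma adjusted p = 0.0303). This call was lost in 9 of the 12 fits without 1 library, up to limma adjusted p = 0.158 without IIIM #2 replicate 1, and it held without YM(III) replicate 2, IIIM #1 replicate 2 or IIIM #1 replicate 3. edgeR ended this call too (adjusted p = 0.088), as did limma on the 2 genotypes only (adjusted p = 0.152), on replicates 1 and 2 only (0.135), with a pseudocount of 0.1 (0.125) and without both libraries under 1 M reads (0.2).

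**Figure D3:**
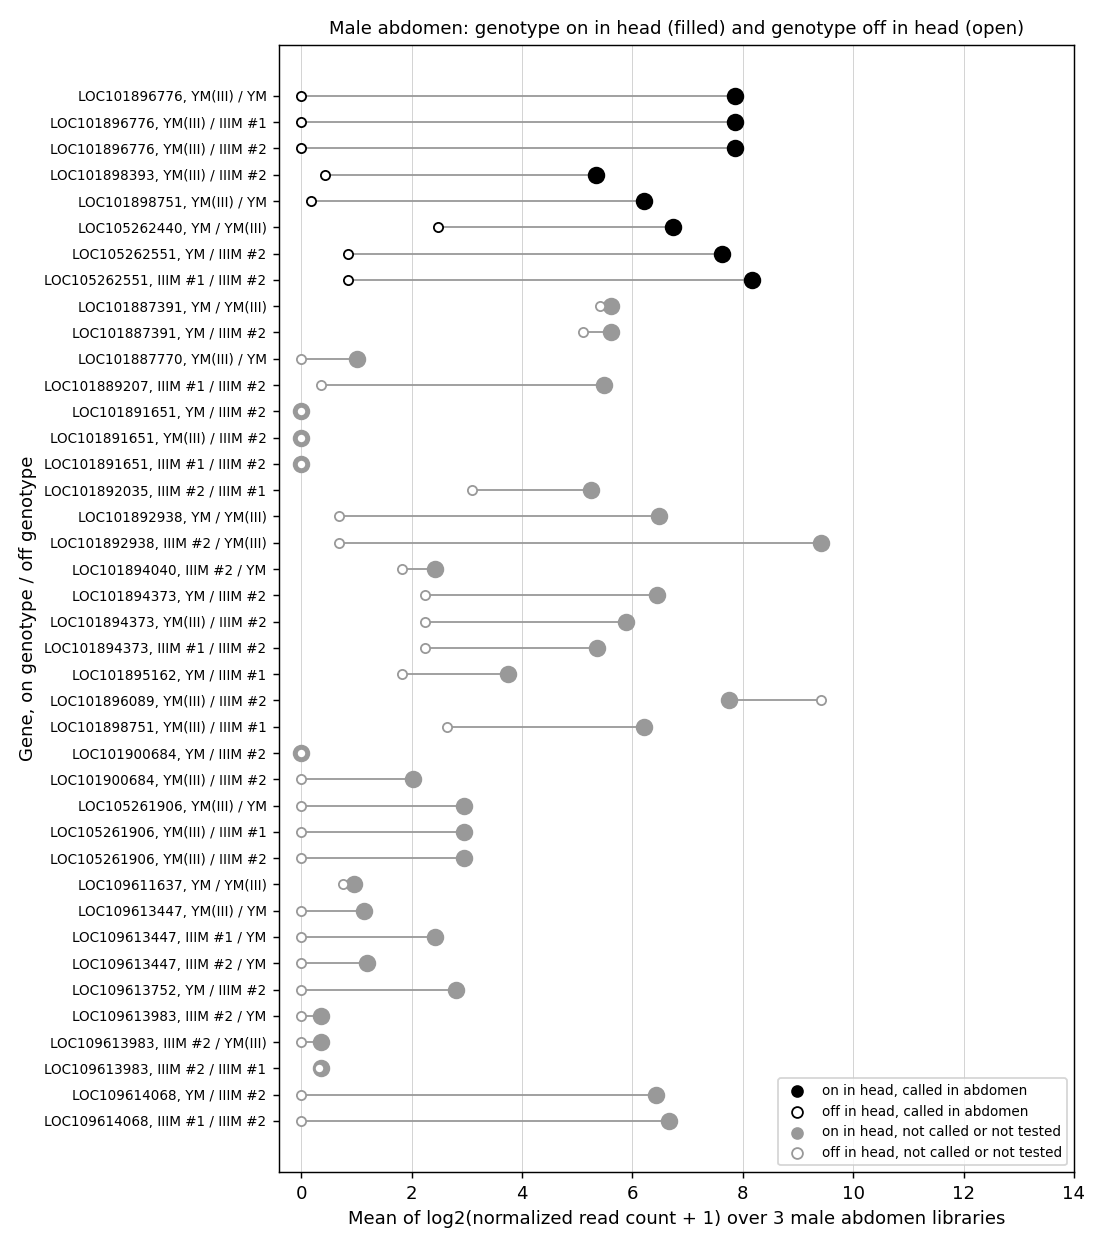
Male abdomen levels of the 40 pairs, as the mean of log2(normalized read count + 1) over 3 libraries, for the genotype on in head (filled) and the genotype silent in head (open, called off in the legend), with the 8 pairs called by limma in black. The filled point lies to the right in 35 pairs, both points lie at 0 in 4, and LOC101896089 is the 1 pair with the open point to the right.

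Other genes showed the head pattern in abdomen without passing the test. LOC109614068 had 199, 15.3 and 192 in YM abdomens and 43.9, 245 and 93.0 in IIIM #1 abdomens, against 0 reads in all 3 IIIM #2 abdomens. By the 3-read floor that was at least 154-fold higher in YM (log2 6.42, SE 1.42, limma adjusted p = 0.0724) and at least 145-fold higher in IIIM #1 (log2 6.66, limma adjusted p = 0.414). LOC101892938 had 308, 214 and 9.62 in YM abdomens and 564, 396 and 1398 in IIIM #2 abdomens, against 0, 0.965 and 1.1 in YM(III) abdomens. Its log2 differences of 5.80 over YM(III) for YM and 8.73 for IIIM #2 were not called (SE 2.06, limma adjusted p = 0.112 and 0.118), and IIIM #1 abdomens measured 353, 811 and 0.484. LOC101889207 had 18.5, 97.9 and 45.5 in IIIM #1 abdomens, against 0, 0 and 1.1 in IIIM #2 abdomens (log2 5.13, SE 1.02, limma adjusted p = 0.381). LOC101894373 had 96.5, 61.3 and 106 in YM abdomens, against 16.1, 0 and 5.12 in IIIM #2 abdomens (log2 4.20, SE 1.04, limma adjusted p = 0.0997). Its YM(III) abdomens, at 24.9, 53.1 and 148, also lay above those of IIIM #2 (log2 3.66, limma adjusted p = 0.186). Its IIIM #1 abdomens, at 39.3, 15.5 and 104, overlapped those of IIIM #2 (log2 3.12, not called). LOC101892035 had 55.5, 17.6 and 50.8 in IIIM #2 abdomens, against 9.24, 12.9 and 3.39 in IIIM #1 abdomens (log2 2.15, SE 0.66, limma adjusted p = 1). In all 5 genes the libraries of the pairs given did not overlap, except for LOC101894373 in IIIM #1 against IIIM #2. Among the 40 pairs, every abdomen library of the on genotype lay above every one of the silent genotype in 18, from 11 genes, and the reverse held in 0. Over all genes and directions this was so for 6.75%.

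Transcript that was missing from a genotype's heads was in some cases present in its abdomens. LOC101887391, silent in YM(III) and IIIM #2 heads, had 42.6, 53.6 and 48.0 in YM abdomens, against 105, 11.6 and 57.0 in YM(III) and 23.3, 35.2 and 46.0 in IIIM #2 abdomens. The ranges overlapped with YM(III), at a log2 difference of 0.20 (SE 0.66, limma adjusted p = 0.896), and with IIIM #2, at 0.50 (SE 0.66, limma adjusted p = 0.737). LOC101896089 was the only gene with a genotype silent in head and on in abdomen. It had 149, 55.0 and 1173 in YM(III) abdomens, against 1335, 1717 and 140.3 in IIIM #2 abdomens, where heads had at most 4.23 (log2 −1.68, SE 2.05, limma adjusted p = 0.9). IIIM #1 abdomens of this gene measured 9.24, 29.2 and 3664, so flies of 1 strain spanned the values of the others. LOC101894040 had 16.1, 0 and 8.04 in IIIM #2 abdomens, against 7.09, 0 and 4.59 in YM abdomens (log2 0.59, SE 1.37, limma adjusted p = 0.86).

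Several genes were hardly seen in abdomen. LOC101891651, on in 3 genotypes in head, had 0 reads in all 12 male abdomens and in both female abdomens. LOC109613447 had 0 reads in the 3 YM abdomens, as in YM heads, but also only 0, 0.965 and 4.38 in YM(III), 11.5, 2.58 and 2.42 in IIIM #1 and 1.79, 0 and 3.29 in IIIM #2. LOC105261906 had 0, 9.65 and 42.2 in YM(III) abdomens and 0 reads in the other 9 male abdomens. LOC109613752 had 17.0, 0 and 18.1 in YM abdomens and 0 reads in the 3 IIIM #2 abdomens. LOC101900684 was found in a single abdomen, YM(III) replicate 1, at 66.4. The remaining genes low in abdomen were LOC109613983, at most 1.1 in any male abdomen, LOC109611637, at most 3.86, LOC101887770, at most 9.21, and LOC101895162, at 4.26, 7.66 and 51.5 in YM and at most 10.6 in other males. These 9 genes did not reach 10 in at least 3 male abdomens and were not tested there, and 13 genes in 22 pairs were.

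Counted over gene and genotype, the 32 cases on in head comprised 7 on, 16 intermediate and 9 silent in abdomen. The 30 cases silent in head comprised 1 on, 7 intermediate and 22 silent in abdomen, and the 26 intermediate cases comprised 0, 19 and 7. These counts are a description only, since no share over all genes was computed and cases of 1 gene are not independent. They include genes hardly seen in abdomen, 3 of them silent there in every male genotype, which count as silent in abdomen whatever their head class. By the same thresholds, 4 of the 40 pairs were on against silent in abdomen, against 0.0151% over all genes and directions, and 0 were reversed. The median log2 difference over the 40 pairs in abdomen was 2.88, or 3.69 with groups of 0 reads set to the 3-read floor, and the median over all genes lay between −0.04 and 0.05 in the 6 comparisons of genotypes. The authors' deposited table compared the genotypes of 28 of the 40 pairs in abdomen. In each comparison it gave an adjusted p for only 8 to 12 of the 22 genes. The authors' adjusted p was under 0.05 with the on genotype higher in 6 of the 28 and lower in 0. Of all adjusted p-values in the authors' deposited table, 5.63% were under 0.05 in either direction. The 28 pairs include genes without an adjusted p, so the 6 of 28 and this share have unlike bases.

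Females of a strain tracked its males in head. The labels call the females isogenic with each other, and in 19 pairs of 13 genes both the on and the silent strain had a female head library. In all 19 pairs the female head of the on strain was higher, where 44.1% of all genes were higher in a given direction. For LOC109613983, in both its pairs, this was only 1 read (0.755) against 0. In 13 of the 19 it was at least 50 against below 5, where 0.18% of all genes were, and in 0 pairs was this reversed. With 1 female library per strain there is no test. LOC105262551 had 293 in the IsoCS female and 179 in the CS female, against 0.755 in the CSrab female, 1 read. LOC109614068 had 173 in IsoCS and 127 in CS, against 0 in CSrab, and LOC109613752 had 79.1 in IsoCS against 0 in CSrab. For these 3 genes the CSrab female had at most 1 read, as CSrab males, the IIIM #2 genotype, had been silent. For LOC101894373 the CSrab female had 6.04, against 236 in IsoCS and 47.2 in CS, and for LOC101889207 it had 7.55, against 69.8 in CS, both above the silent limit of 5.

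The female head also matched in the other directions. LOC109613447, at 0 reads in YM heads, had 642 in the CSrab female and 375 in the CS female, against 0 in the IsoCS female. LOC101892035 had 149 in CSrab against 0 in CS, and LOC101894040 had 86.0 in CSrab against 3.27 in IsoCS. LOC101891651 had 88.9 in IsoCS and 80.7 in CS against 0.755 in CSrab. LOC101887391 had 339 in IsoCS against 1.51 in CSrab, and LOC101900684 had 87.6 in IsoCS against 0.755 in CSrab. Levels in females therefore ordered the strains for these genes as levels in males had. LOC101896776 and LOC105261906, on only in YM(III) males, had 0 reads in all 3 female heads, none of which came from the YM(III) strain.

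**Figure D4:**
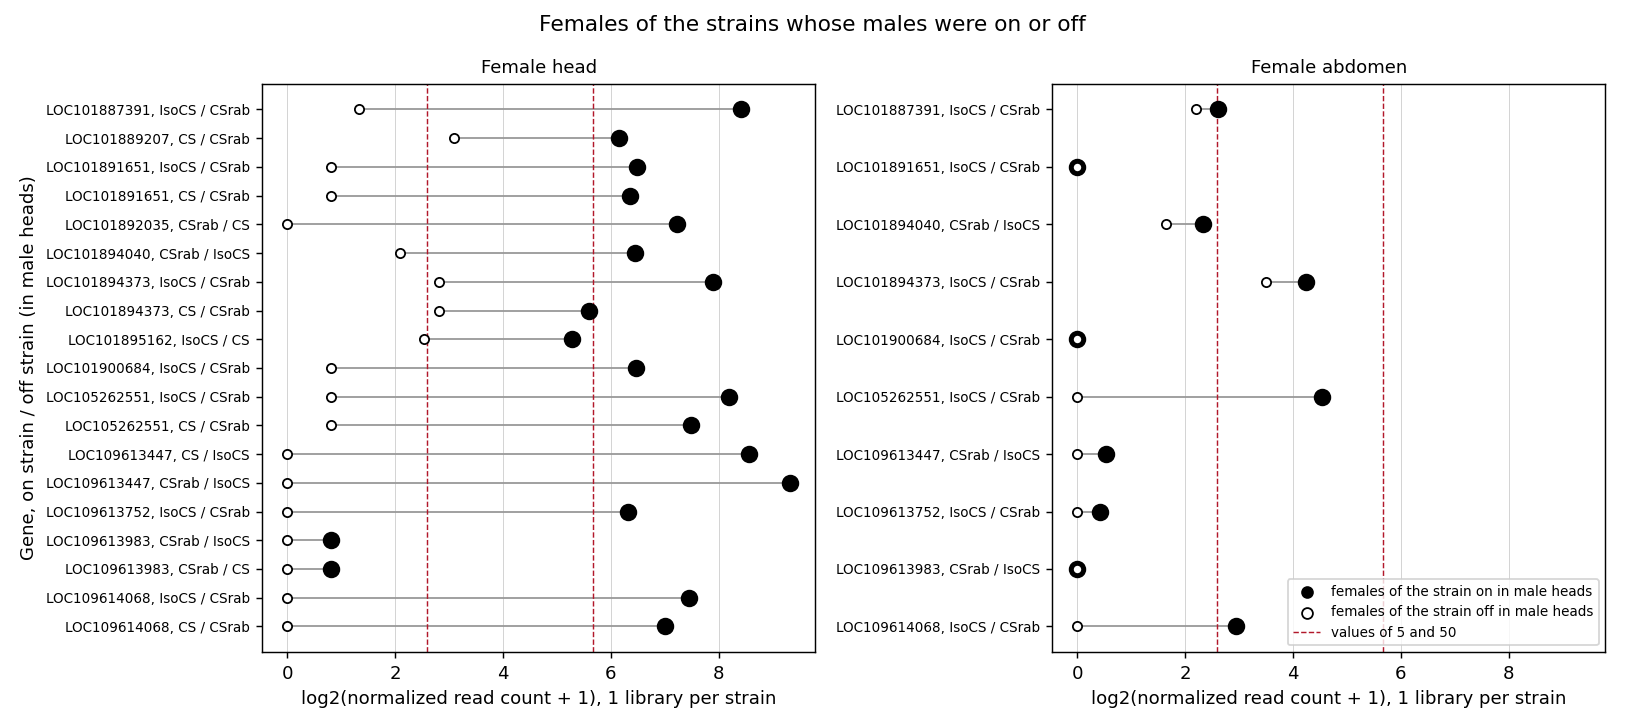
Female values, as log2(normalized read count + 1) from 1 library per strain, for pairs in which the strain was on (filled) or silent (open, called off) in male heads, in female heads (left, 19 pairs) and female abdomens (right, 10 pairs), with dashed lines at 5 and 50. In head every filled point lies right of its open point, while in abdomen no filled point reaches 50.

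Not every female followed. LOC109613983, on in IIIM #2 male heads at 77.6 to 80.0, had 0.755 in the CSrab female head, 1 read, against 0 in IsoCS and 0 in CS. LOC101887770, at 29.0 to 203 in male heads of both IIIM strains, had 0.684 in the CS and 0.755 in the CSrab female head. These transcripts were thus at or near 0 in female heads of strains whose males had them. LOC101892938, uneven among IIIM #1 males, had 1369.9 in the CS female head, with 2479 in CSrab and 313 in IsoCS. Counted over gene and strain, the female head was at least 50 in 17 of the 22 cases on in males, intermediate in 4 and below 5 in 1. It was below 5 in 23 of the 25 cases silent in males, with a highest value of 7.55, that of LOC101889207 in CSrab. The 23 include cases of LOC101887770, LOC101896776, LOC101898751, LOC105261906 and LOC109613983. These genes were below 5 in every female head, so their cases do not separate the strains. No share over all genes was computed for these counts.

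Female abdomens showed less. In 10 pairs of 10 genes with a female abdomen of both strains, 7 were higher in the on strain, where 40.1% of all genes were higher in a given direction, and 0 were at least 50 against below 5, where 0.121% were. Among the 7, LOC109613447 had 0.447 (1 read) against 0 and LOC109613752 had 0.328 (2 reads) against 0. LOC105262551 had 22.1 in the IsoCS female abdomen against 0 in the CSrab one, and LOC109614068 had 6.72 against 0. LOC101894373 had 17.9 against 10.3 and LOC101887391 had 5.08 against 3.58. LOC101894040 had 4.02 in the CSrab female abdomen against 2.13 in the IsoCS one. LOC101891651, LOC101900684 and LOC109613983 had 0 reads in both. For LOC105262551, LOC109614068 and LOC101894373, males and females of a strain thus lay on the same side, at low values in these females. For LOC101887391 and LOC101894040 the male abdomens of the pair overlapped.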

How the data were processed

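Libraries were made with a stranded TruSeq mRNA kit, per the labels' protocols. Per the submitters' processing notes, HISAT2 0.12.2, HTSeq 0.9.1, CASAVA 1.8 and DESeq2 1.16.1 were used. Their genome build was not given in the sources used here. The values were the authors' deposited normalized counts, a signal in which each library's reads are scaled by a single factor. All values were whole multiples of 1 read (tolerance 0.001), so reads were recovered for depth, floors and count tests. The authors' deposited tables also held log2 fold changes and adjusted p-values for 4 comparisons.

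Male abdomens were tested with limma 3.58.1 in R 4.3.3 on log2(value + 1), which understates changes of low genes, with a variance trend and robust moderation over 12 libraries. The 11342 genes with at least 10 in at least 3 libraries entered 6 two-sided comparisons, each adjusted by Benjamini-Hochberg. The planned count test was kept as an alternative, with edgeR 4.0.16 and DESeq2 1.42.0, because the tables hold normalized values. Plots used Python 3.11.15 and matplotlib 3.10.9. Scripts were tested on simulated data. Folds are ratios of mean values, not the antilog of the log2 differences. Where the silent group held 1 to 3 reads, its pooled reads were used for the fold. Floors (3 reads over a group) and 95% intervals cover counting error only.

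The members, the rule that names genes (by pattern of on and silent genotypes, smallest abdomen adjusted p, and nearness to the thresholds) and all lists were chosen with earlier results of these data known. Genes named outside that rule were chosen after their values were seen. Nothing in the labels says that head and abdomen of 1 number came from 1 fly. Replicates are individual flies per the labels, so p-values measure the spread between flies of a strain. In the main fit that spread also takes in any effect shared by same-numbered abdomen libraries.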

Additional observations from a re-analysis of the deposited data

How the results depend on the processing

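The 8 abdomen pairs called with the on genotype higher were 8 with TMM factors, 8 with no filter and 6 with a pseudocount of 5. Fewer were called with edgeR (3), with a pseudocount of 0.1 (3), with the libraries of the compared genotypes only (3), with a mean of at least 50 (2), with replicates 1 and 2 only (5) and without both libraries under 1 M reads (3). DESeq2 called 14. Dropping single libraries in turn moved the count to between 3 and 10. A replicate block gave 14. Same-numbered abdomen libraries deviated together, at correlations of 0.069 to 0.654, with 17 of 18 over 0.1, and 11 of 12 libraries correlated best with their own number. This is a hint of a shared effect from the data, not the design, and the criterion that every correlation exceed 0.1 was missed by 1 (YM and IIIM #2, replicate 1), so the block was kept as an alternative. Stricter thresholds of 100 and 2 left 6 genes and 1 call among 8 pairs, by construction fewer. Looser ones of 25 and 10 gave 58 genes, with 11 calls higher and 1 lower among 109 pairs. The count of 0 lower calls was 0 under the other alternatives. TMM-scaled head values and leaving out the female step each gave 22 genes. No called pair reversed, and LOC101898751 in YM(III) against YM was called in all 22 alternatives that tested it. It was not tested with a mean of at least 50, and it passed the main filter only with its YM(III) libraries. For the other changes the cause was not tested. Depth limits the abdomens under 1 M reads, where 1 read is worth more than the silent limit of 5.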

Other observations

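Flies of 1 strain did not always share a state. Of the 88 combinations of the 22 genes and 4 genotypes, 3 in head had 1 library at least 50 and another below 5, and all 3 were in IIIM #1: LOC101892938 at 791, 753 and 1.75, LOC101900684 at 51.1, 38.0 and 0, and LOC109613752 at 124, 90.5 and 0. The 3 were 3.41% of the 88, against 0.45% over all genes and genotypes in head. In each of the 3 it was replicate 3 that was near 0. The criterion was chosen after the values were seen, and the rule chose these genes on male head values on both sides of the same thresholds, so the count in head is a description only. In abdomen 3 combinations were split, 3.41% of the 88, against 0.963% over all genes and genotypes. LOC101892938 in IIIM #1 abdomens measured 353, 811 and 0.484, again with replicate 3 near 0. LOC109613752 there measured 9.24, 9.45 and 0.484, which did not meet the criterion and is not among the 3. LOC101900684 in YM(III) abdomens measured 66.4, 0 and 0, and LOC101895162 in YM abdomens 4.26, 7.66 and 51.5. Nothing in the labels says that head and abdomen replicate 3 of IIIM #1 came from the same fly.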
